A study of Mus musculus with 3 samples.

Results

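The heat shock chaperone genes Hspa1a, Hspa1b, Hsph1, Dnajb1, Hspb1, Hsp90aa1, Hspa8, Cryab, Hspe1 and Hspd1 were examined across the cell classes of mouse dorsal skin in 3 single-cell libraries. The members were taken by name from the gene list of the count matrices, and all 10 were found among its 32285 genes. The rule used no threshold on measured values, although the list was drawn up with earlier results of these data known.

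Heat shock proteins are chaperones that keep other proteins from aggregating and help them fold. Many of their genes are switched on by the transcription factor HSF1, which binds heat shock elements, DNA motifs built of inverted units of GAA and TTC. In skin the family is known from responses to heat, oxidants and ultraviolet light, from keratinocyte differentiation (Hspb1) and from muscle and nerve (Cryab). Enzymatic dissociation of tissue is itself known to raise inducible heat shock genes together with immediate-early genes such as Fos.

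The study asked how chronic ultraviolet irradiation ages skin and what topical ruxolitinib, an inhibitor of the kinases JAK1 and JAK2, changes in it. All samples were full-thickness dorsal skin of wild-type C57BL/6J mice that the labels call female and that, per the study's methods, were 8 weeks old when bought, before the treatment. CON was not irradiated and, per the study's scheme of its groups, received vehicle. UV received mixed UVA at 0.60 mW per cm2 and UVB at 3.5 mW per cm2 every other day for 12 weeks with vehicle. Rux received the same irradiation, each time followed by ruxolitinib as a 1.5% ointment. Skin was taken 24 hours after the last exposure and dissociated with enzymes. The number of mice behind a library is not given in the sources used here.

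CON, UV and Rux were 1 library each, so no difference between them has a replicate check and no test was made. The matrices held 13170, 12411 and 11287 cell barcodes with 165337289, 133972374 and 131570327 UMIs (molecular tags that each mark 1 captured transcript), and 10777, 10231 and 9299 cells were retained. Levels below are in CPM, the UMIs of a gene in the summed cells scaled to a total of 1000000, and differences are log2 ratios of these levels. Brackets hold exact 95% intervals, Poisson for levels and conditional binomial for ratios, which cover counting error only. Of 36750 distinct barcodes, 118 occurred in more than 1 library. The Y-linked gene Ddx3y stood at 110 to 121 CPM and the female-expressed RNA Xist at 0.0925 to 0.120 CPM in the 3 libraries, which goes against the female label in each. Cells fell into 45 clusters, of which 8 stayed unnamed, because their markers did not set 1 class apart, their leading genes marked another class, or UMIs per cell were few and no marker led. The others gave 17 classes, and some keratinocyte clusters could not be divided further. A class is written "-like" because its name rests on markers alone: FB fibroblast, KB basal keratinocyte, KS suprabasal keratinocyte, HF hair follicle, SG sebaceous gland, MEL melanocyte, VEC vascular and LEC lymphatic endothelium, PCY pericyte and smooth muscle, SCH Schwann cell, MP muscle progenitor, SKM skeletal muscle, MYE myeloid, LYM lymphocyte, MC mast cell, NEU neutrophil and ERY erythroid. Unnamed clusters held 15.0% to 16.4% of the cells of a library. KS-like cells comprised clusters 9 and 31. Cluster 9, led by Cst6, Defb6 and Krt79, held 506, 239 and 201 cells of CON, UV and Rux. Krt79 was also among the markers used for HF, so the suprabasal name is uncertain for cluster 9. Cluster 31, led by Krt77, Krt10 and Krt1, held 255, 7 and 20, so KS-like cells of UV and Rux came mostly from cluster 9. MYE-like cells comprised clusters 20, with 207, 148 and 137 cells of CON, UV and Rux, and 21, with 70, 97 and 303. Cluster 20 was named from myeloid markers, but immunoglobulin genes of B and plasma cells (Igkc, Ighg2b and Ighm) were its leading genes, and the part of this in the values of MYE-like cells was not tested.

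The members differed in their levels across the classes, though some were alike, such as Hspd1 and Hspe1 (below). The plot of levels by class shows all of them. ERY-like cells of CON, only 11, were left out. Cryab, which encodes the small heat shock protein alpha-B-crystallin, had the widest range among the members detected in each class, with 621 times its lowest level in the highest class of CON. In CON it reached 1931 CPM (1796 to 2073) in SCH-like and 1667 CPM (1555 to 1784) in SKM-like cells, followed by 253 CPM in MP-like, 186 CPM in PCY-like and 122 CPM in FB-like cells. The other 11 classes of CON lay between 3.11 and 12.1 CPM, and neighbours in that lower range overlapped in their intervals. SCH-like cells also held 1689 CPM in UV and 1900 CPM in Rux. SKM-like cells held 1889 CPM in UV and 988 CPM in Rux, from 30 and 46 cells. After each cell was thinned to 2000 UMIs, which left out 45 SCH-like, 136 FB-like and 9 LYM-like cells of CON with fewer, 87.8% of SCH-like cells of CON had a UMI of Cryab, against 17.1% of FB-like and 1.23% (0.254% to 3.55%) of LYM-like cells. Before thinning these shares were 86.7%, 40.4% and 3.56%, at a median depth of 2535, 6093 and 5430 UMIs. A share as low as that of LYM-like cells can be free RNA picked up by droplets, so levels of about 10 CPM are not read here as expression.

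**Figure D1:**
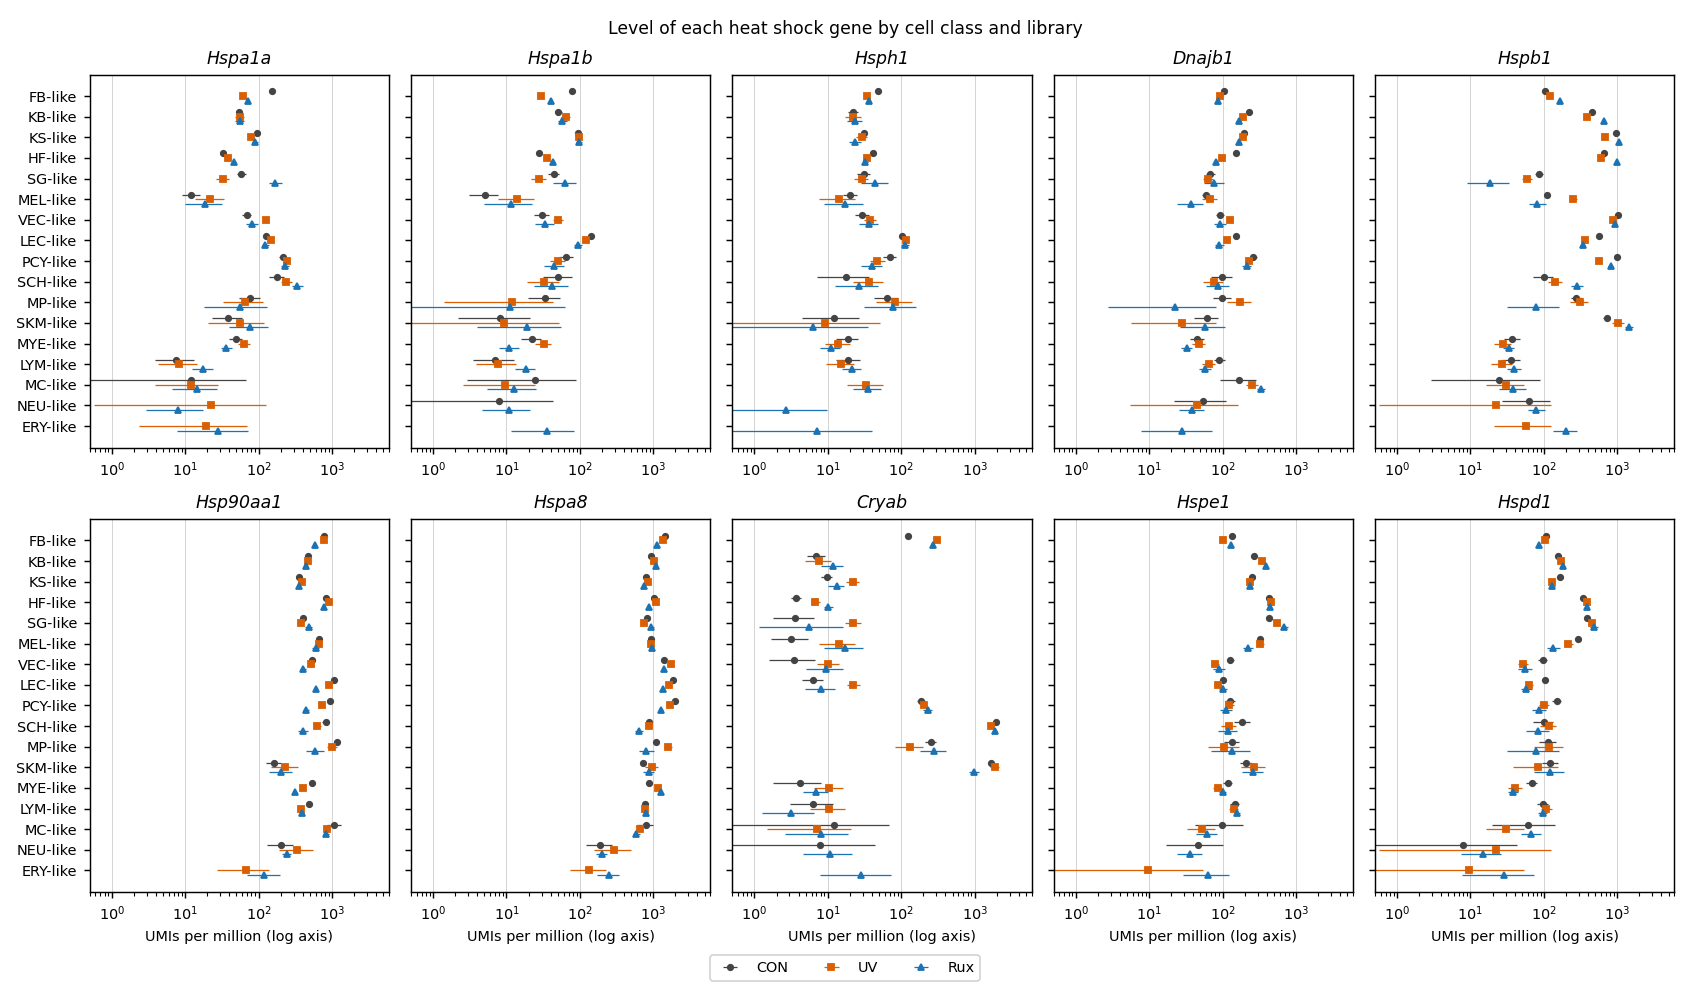
Level of each of the 10 members (CPM, log axis) in every class with at least 20 cells, for CON (circles), UV (squares) and Rux (triangles), with exact Poisson 95% intervals. Values of 0 are not drawn. Cryab spans from 3.11 to 1931 CPM in CON, while Hspa8 stays between 187 and 1980 CPM.

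Hspb1, which encodes the small heat shock protein HSP27, had its highest levels in vessel, epithelial and muscle classes. In CON the highest levels were 1031 CPM in VEC-like, 991 CPM in PCY-like and 948 CPM in KS-like cells, and the intervals of neighbours in this order overlapped. SKM-like cells had 720 CPM, HF-like 654 CPM, LEC-like 572 CPM and KB-like 457 CPM. FB-like cells, with 105 CPM, stood with MEL-like and SCH-like cells at 110 and 98.9 CPM. LYM-like, MYE-like and MC-like cells had 24.3 to 37.1 CPM, and epithelial SG-like cells 86.2 CPM. In UV and Rux the highest class was SKM-like, with 1023 and 1444 CPM, apart from the next class in Rux but not in UV. Cryab and Hspb1 thus led in different classes in CON and Rux, while in UV SKM-like cells, only 30, led for both. Across 36 units of 1 class in 1 library with at least 100 cells, the Pearson r of the log2 levels of Cryab and Hspb1 was 0.10. SKM-like cells of UV and Rux were too few to be among these units. These units share 3 libraries and differ in depth, so this and the other correlations below are descriptions.

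The inducible HSP70 genes Hspa1a and Hspa1b are neighbouring single-exon copies on chromosome 17, at chr17:34969190-34972156 and chr17:34956436-34959238 on the minus strand of GRCm38. Their transcripts are alike over long stretches, and 49.3% of all 90-base windows of Hspa1a are found whole in Hspa1b. None of the 411 such windows in the last 500 bases is shared, and it is near this end that a 3′ library reads. A gene on the other strand, Gm20481, overlaps Hspa1a by 2225 bases. Because reads could still be split between the copies, their sum is given beside each. The 250 bases upstream of their RefSeq starts are identical at 247 positions and both hold 1 heat shock element of 2 units, with 96 bases between it and the start. They are shown because the pair differed between libraries in FB-like cells (below), with the element in capitals (GRCm38.p6, chr17:34972157-34972406 and chr17:34959239-34959488, minus strand, 5′ to 3′).
Hspa1a: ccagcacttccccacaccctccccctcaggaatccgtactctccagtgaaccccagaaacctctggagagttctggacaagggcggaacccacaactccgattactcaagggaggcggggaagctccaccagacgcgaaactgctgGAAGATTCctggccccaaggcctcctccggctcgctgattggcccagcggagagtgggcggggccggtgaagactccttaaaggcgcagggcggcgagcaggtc
Hspa1b: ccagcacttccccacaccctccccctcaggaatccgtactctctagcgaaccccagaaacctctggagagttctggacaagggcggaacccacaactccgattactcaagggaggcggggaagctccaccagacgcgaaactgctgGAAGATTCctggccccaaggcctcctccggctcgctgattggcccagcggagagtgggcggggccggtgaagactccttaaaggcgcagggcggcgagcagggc

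Promoter windows of RefSeq were at hand for 7 of the 10 members, in 10 windows, namely Hspa1a, Hspa1b, Hsph1, Dnajb1, Hspb1, Hspe1 and Hspd1. The search took the letters GAANNTTC and TTCNNGAA, each its own reverse complement, for an element of 2 units, and GAANNTTCNNGAA with its reverse complement TTCNNGAANNTTC for 3 units, which contains both shorter ones. An element of 2 units was found in 7 of the 10 member windows and in 12.8% of all 32851 windows of 250 bases. By gene it was found for 6 of these 7 members and for 14.5% of 27025 genes. An element of 3 units was found in 2 of the 10, 1 each of Hspd1 and Hspe1, and in 0.466% of all windows. The member windows are not separate sites. Those of Hsph1 overlap and hold the same element, Hspd1 and Hspe1 hold the same run (below), and those of the HSP70 pair are nearly identical. A match is a description of letters and not evidence of binding. Hspb1 holds 2 elements of 2 units, the nearer one with 89 bases between it and the start, and its window is shown for comparison with the HSP70 pair (chr5:135887669-135887918, plus strand).
Hspb1: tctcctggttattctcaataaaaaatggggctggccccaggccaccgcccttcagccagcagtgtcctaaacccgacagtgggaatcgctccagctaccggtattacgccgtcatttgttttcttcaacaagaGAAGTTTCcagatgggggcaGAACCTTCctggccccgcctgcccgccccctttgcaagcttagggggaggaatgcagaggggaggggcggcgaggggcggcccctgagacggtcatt

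Summed, the HSP70 pair was highest in CON in PCY-like cells with 278 CPM, LEC-like with 266 CPM, FB-like with 230 CPM and SCH-like with 228 CPM. PCY-like and LEC-like cells overlapped in their intervals, as did FB-like and SCH-like cells. At the other end, NEU-like cells had 7.80 CPM (1 UMI), LYM-like cells 14.6 CPM and MEL-like cells 17.2 CPM, and these overlapped. The copies differed in their order of classes. Hspa1a was highest in CON in PCY-like cells with 212 CPM and SCH-like cells with 178 CPM, which overlapped. Hspa1b was highest in LEC-like cells with 141 CPM, apart from KS-like cells with 94.9 CPM. The UMIs of the pair were concentrated in few cells: in FB-like cells of CON, 73.1% of them came from the tenth of the cells that held most.

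Dnajb1, the HSP40 co-chaperone that delivers clients to HSP70, was highest in CON in PCY-like cells (261 CPM) and KB-like cells (231 CPM), whose intervals overlapped. Its range over the classes of CON was the narrowest of the members detected in each of them, with MYE-like cells lowest at 44.8 CPM. MC-like cells had 170 CPM (92.8 to 285) in CON, 252 CPM (206 to 305) in UV and 335 CPM (291 to 383) in Rux, where they were the highest class. Hsph1, the HSP110 exchange factor of HSP70, was highest in LEC-like cells in all 3 libraries, with 104, 118 and 111 CPM, though only in CON apart from the next class, and MP-like cells followed with 82.8 CPM in UV and 78.2 CPM in Rux. Hspa8 encodes the constitutive HSC70. It ranged from 728 to 1980 CPM in the classes of CON other than NEU-like cells, which had 187 CPM. PCY-like and LEC-like cells led for Hspa8 with 1980 and 1873 CPM. Hsp90aa1, the inducible cytosolic HSP90, was highest in MP-like, MC-like and LEC-like cells of CON with 1189, 1079 and 1051 CPM, which overlapped, and lowest in SKM-like cells with 162 CPM.

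Hspd1 and Hspe1 encode HSP60 and HSP10, the chaperonin of the mitochondrial matrix and its lid. Their genes lie head to head on chromosome 1, at chr1:55077835-55088243 on the minus and chr1:55088132-55091307 on the plus strand, and overlap by 112 bases. The windows of both hold the same 18 bases, chr1:55088059-55088076, in which 3 elements of 2 units overlap and form 2 elements of 3 units. The window upstream of Hspe1 is shown because this run lies upstream of the Hspe1 start and of 1 of the Hspd1 starts (chr1:55087898-55088147, plus strand, elements in capitals).
Hspe1: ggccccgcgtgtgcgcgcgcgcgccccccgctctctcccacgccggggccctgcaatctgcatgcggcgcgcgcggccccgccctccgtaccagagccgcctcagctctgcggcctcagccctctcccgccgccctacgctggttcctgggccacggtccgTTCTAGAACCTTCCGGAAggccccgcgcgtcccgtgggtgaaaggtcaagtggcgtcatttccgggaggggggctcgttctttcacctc

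Both chaperonin genes were highest in SG-like and HF-like cells. HF-like cells of CON included 517 of cluster 6, 551 of cluster 8 and 230 of cluster 27. Leading genes of clusters 6 and 27 included cell-cycle genes, such as Hist1h1b in cluster 6 and Mki67 and Top2a in cluster 27. Cluster 7, with Lgr5 and Lhx2 among its leading genes, was left undivided and is not part of HF-like. The part of dividing cells in the HF-like levels was not tested. SG-like cells of CON had 392 CPM of Hspd1 and 431 CPM of Hspe1, and HF-like cells had 345 and 430 CPM. For Hspe1 the intervals of these classes overlapped, and for Hspd1 they did not. MEL-like cells followed with 290 and 324 CPM. NEU-like cells were lowest with 7.80 CPM of Hspd1 (1 UMI) and 46.8 CPM of Hspe1, from 50 cells. Over the 36 units of class and library, Hspd1 and Hspe1 had a Pearson r of 0.93 on log2 levels, on the same scale as above. Hspd1 had an r of at most 0.38 with each of the other 8 members.

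**Figure D2:**
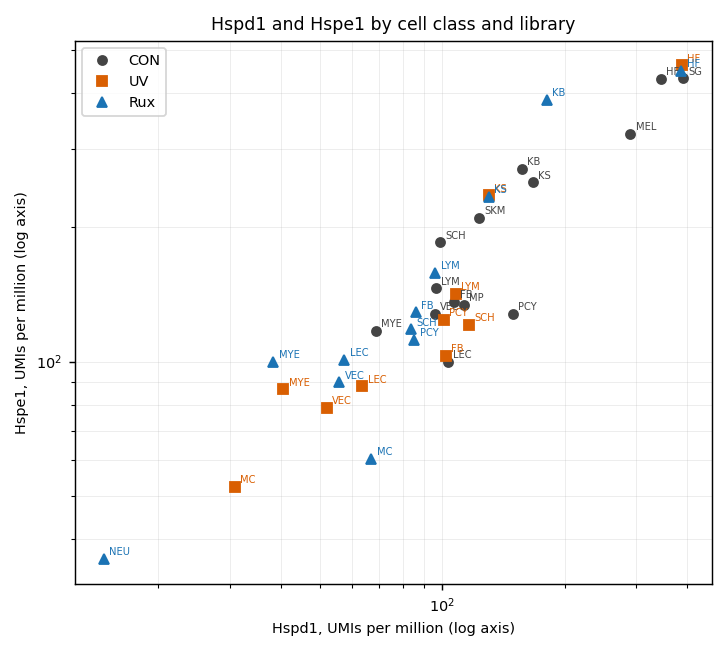
Hspe1 against Hspd1 (CPM, log axes) in each of the 36 units of 1 class in 1 library with at least 100 cells, labelled by class and marked by library. The units lie along a line from NEU-like cells of Rux at the lower left to HF-like and SG-like cells at the upper right.

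Genes outside the members whose levels followed a member most closely over these 36 units, among 7301 genes, were named by Pearson r. For Cryab they included Fxyd1 (0.96) and Dtna (0.92). For Hspb1 they were Lmo7 (0.84), Tnfaip1 (0.83) and Kank1 (0.83). For Hspd1 they were the HSP90 co-chaperone Fkbp4 (0.92), Mrpl13 (0.91) and Pole3 (0.91), so that Hspe1 lay closer to Hspd1 than any of them. For the HSP70 pair they were Sh3pxd2a (0.88), the immediate-early gene Atf3 (0.86) and Afap1 (0.85).

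The irradiated libraries held more Cryab and less HSP70 in FB-like cells than CON. FB-like cells numbered 3195 in CON, 4774 in UV and 4581 in Rux. Unnamed clusters 3 and 16, which scored highest for fibroblast markers, are not among them. Cluster 3 held 634, 675 and 524 cells of CON, UV and Rux, and cluster 16 held 102, 152 and 347. Cryab stood in FB-like cells at 122 CPM (117 to 127) in CON, 312 CPM (306 to 318) in UV and 273 CPM (269 to 278) in Rux. Both irradiated libraries thus lay above CON, UV at 2.56 times and Rux at 2.24 times its level. The HSP70 pair stood at 230 CPM (224 to 237) in CON, 91.4 CPM (88.3 to 94.5) in UV and 112 CPM (109 to 115) in Rux. Here both irradiated libraries lay below CON, UV at 0.397 and Rux at 0.487 times its level. After thinning, the share of FB-like cells with a UMI of Cryab was 17.1%, 30.5% and 25.9% in CON, UV and Rux, against 1.23%, 3.59% and 0.885% of LYM-like cells. For the HSP70 pair the shares were 20.4%, 12.9% and 14.6%, against 2.87%, 3.14% and 4.72% of LYM-like cells. The shares of FB-like cells thus followed the levels.

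With 2-fold as the mark, 1 member was higher and 2 were lower in UV than in CON in FB-like cells. Cryab had a log2 ratio of 1.35 (1.29 to 1.42), Hspa1a of −1.31 (−1.39 to −1.23) and Hspa1b of −1.38 (−1.50 to −1.27). Of 8254 genes expressed at 10 CPM or more on average, 2.47% were at least 2-fold higher and 2.11% at least 2-fold lower, 4.58% in all. The other 7 members lay between −0.51 and 0.20. Hsph1 had 48.6, 34.2 and 36.8 CPM in CON, UV and Rux, and Hspe1 136, 103 and 129 CPM. Dnajb1 had 106, 92.4 and 87.1 CPM. For each of these 3 genes UV was below CON beyond the counting intervals, though Dnajb1 stood at 0.04 once the make-up of the class was held as in CON. Hsph1 and Hspe1 then stood at −0.33 and −0.27, in place of −0.51 and −0.41. Among the 8 clusters of the class (below), UV was lower with intervals apart in 1 for Hsph1, 1 for Dnajb1 and 3 for Hspe1. For Dnajb1 it was higher with intervals apart in 1. Of all genes only 38.2% were above CON in UV here, and the share of them beyond counting error was not computed. The median log2 ratio of the 10 members was −0.15 and that of all genes −0.10.

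**Figure D3:**
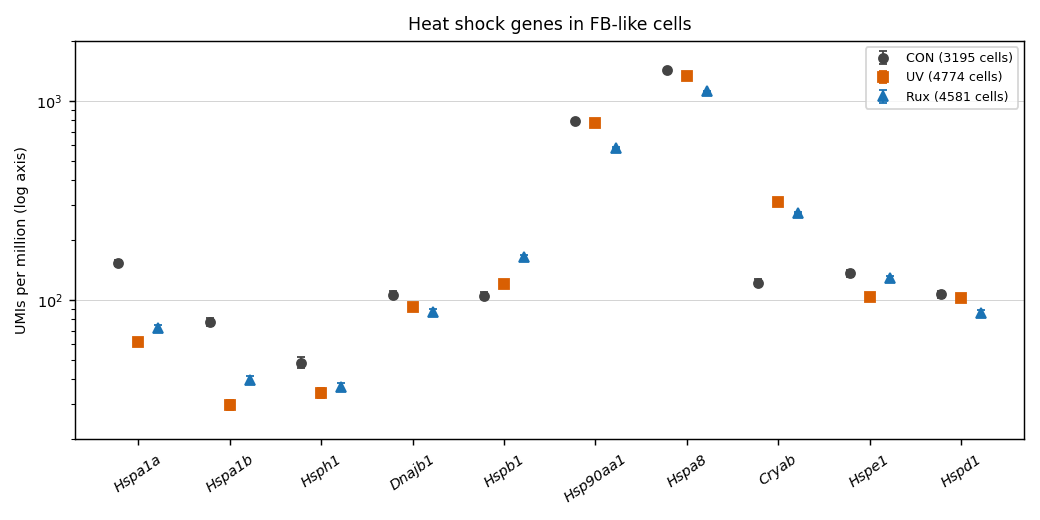
Level of the 10 members in FB-like cells (CPM, log axis) of CON, UV and Rux with exact Poisson 95% intervals. Cryab is higher and Hspa1a and Hspa1b are lower in both irradiated libraries than in CON, while Hsp90aa1 and Hspa8 are lowest in Rux.

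FB-like cells comprised 8 clusters whose sizes differed between the libraries, which matters for the HSP70 pair. Cluster 0 (led by Myoc, Abca8a and Inmt) held 1496, 846 and 922 cells in CON, UV and Rux. Cluster 5 (Sntg1, Smpd3 and Cxcl13) held 126, 1083 and 355, and cluster 4 (Postn, Adam12 and Hp) 128, 545 and 933. Cluster 12 (Igfbp2, Col1a1 and Mfap4) held 371, 70 and 273. Within each of the 8 clusters the pair was lower in UV than in CON with intervals that did not overlap, from 311 to 168 CPM in cluster 0 and from 209 to 62.3 CPM in cluster 5. The clusters were also given the weights they had in CON, a setting chosen after seeing the data. With these weights the log2 ratio of the pair was −0.82 in place of −1.33. Only Cryab was then still past 2-fold, and the share of all genes past it was not computed for this setting. Rux was below CON in all 8 clusters and apart from it in 5.

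Cryab was higher in UV than in CON in all 8 clusters, and in 7 of them the intervals did not overlap. In UV and Rux the highest level was that of cluster 1 (Saa3, Iglc2 and Mmp3), with 487 and 362 CPM. In CON cluster 1 had 153 CPM and cluster 10 (Sult1e1, Smpd3 and Sdk1) 159 CPM, with intervals that overlapped. As a ratio, the widest step was that of cluster 5, from 63.7 CPM in CON to 288 CPM in UV, with 166 CPM in Rux. In cluster 37 (Coch, Fmod and Crabp1), with 36.4, 74.0 and 133 CPM, the CON and UV intervals overlapped. Rux was above CON in all 8 clusters with intervals apart. Hspb2, another small heat shock gene, lies head to head with Cryab and overlaps it by 1030 bases on the other strand. It had 8.56, 9.86 and 10.7 CPM in FB-like cells.

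**Figure D4:**
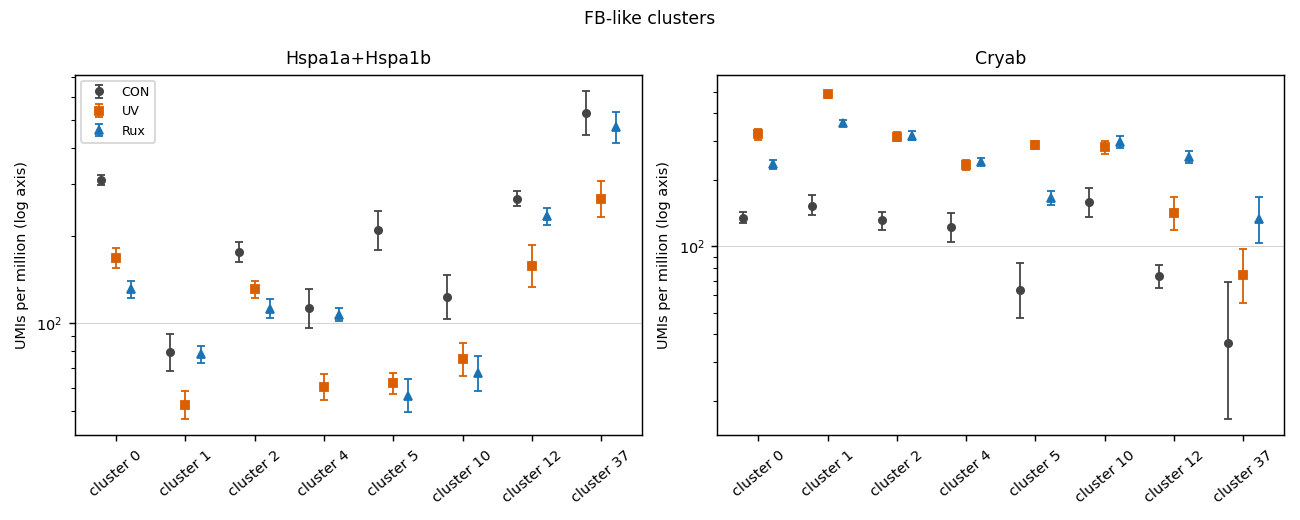
HSP70 pair (left) and Cryab (right) in each of the 8 FB-like clusters (CPM, log axis) of CON, UV and Rux, with exact Poisson 95% intervals. The pair is lower in UV than in CON and Cryab is higher in every cluster.

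Immediate-early genes moved with the HSP70 pair in FB-like cells taken as a whole. Their summed level over 16 genes was 26274 CPM in CON, 13976 CPM in UV and 15557 CPM in Rux. Of the 16 genes, 15 were below CON in UV, where 38.2% of all genes were above it. At least 2-fold lower were 7 of them, as were 2.11% of all genes. The median log2 ratio was −0.96 beside −0.10 for all genes. Egr1 (−1.59) and Nr4a1 (−1.54) were lowest and Klf4 (0.03) and Fosb (−0.04) highest. The other classes with at least 100 cells per library did not share 1 pattern. In LEC-like and PCY-like cells a lower immediate-early sum in UV stood beside a pair near its level in CON. In LEC-like cells that sum was 20184, 15370 and 17071 CPM and the pair 266, 271 and 219 CPM, lower in Rux. In PCY-like cells the sum was 23371, 15925 and 18864 CPM beside 278, 291 and 275 CPM. In SCH-like cells both were higher in UV and Rux, with 16730, 18298 and 23489 CPM beside 228, 271 and 380 CPM. The pair of SCH-like cells in UV was within counting error of CON. In HF-like, VEC-like and MYE-like cells the sum was lower in UV and the pair higher. LYM-like cells had a lower sum in UV, with the pair at 14.6 and 15.9 CPM in CON and UV. In KS-like cells the sum was higher in UV and the pair slightly lower. The median depth of FB-like cells was 6093, 7351 and 9896 UMIs and their median mitochondrial share 1.39%, 1.53% and 1.56%. The immediate-early values are not given within the FB-like clusters, whose sizes differed between the libraries as described above. The part of this make-up, handling, depth and mitochondrial share in the difference was not tested.

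HSP70 did not differ in 1 direction across the classes. Of the 9 classes with at least 100 cells in each library, the pair was below CON in UV in 2, FB-like and KS-like, and in KS-like cells the interval held 0 (−0.10, −0.22 to 0.01). It was higher in VEC-like cells, at 98.9 CPM in CON and 178 CPM in UV (log2 ratio 0.84, 0.63 to 1.06), and at 115 CPM in Rux. It was also higher in HF-like (0.28, 0.20 to 0.36) and MYE-like cells (0.41, 0.09 to 0.74). VEC-like cells comprised clusters 17 (Sele, Selp and Vwf), with 287, 208 and 94 cells, and 22 (Fabp4, Iglc2 and Cd36), with 113, 268 and 84. The part of this make-up in the values of VEC-like cells was not tested. Over all retained cells the pair was near level, with 116, 113 and 120 CPM, but with equal weight per cell UV lay at −0.34 relative to CON on the log2 scale, in place of −0.03.

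Cryab was above CON in UV in 8 of the 9 classes, and in 6 of them the interval lay above 0. Outside FB-like, PCY-like and SCH-like cells these were steps among low values, such as 6.21 to 22.3 CPM in LEC-like and 3.70 to 6.75 CPM in HF-like cells. FB-like cells, which held 2608 of 6107 Cryab UMIs of CON and 11391 of 15027 of UV, made up 29.6% of CON, 46.7% of UV and 49.3% of Rux, and the part of free RNA in the low values was not tested. In PCY-like cells Cryab stood at 186, 204 and 230 CPM (log2 ratio of UV over CON 0.14, −0.11 to 0.39). In SCH-like cells, where the gene is highest, the ratio was −0.19 (−0.33 to −0.05). Over all retained cells Cryab had 43.5 CPM in CON, 129 CPM in UV and 148 CPM in Rux. It was the only member past 2-fold there, both in UV over CON (1.57, 1.53 to 1.61), where 4.68% of 9503 genes were, and in Rux over CON (1.77, 1.73 to 1.81), where 11.1% of 9428 genes were. With equal weight per cell these log2 ratios were 1.05 and 0.81. FB-like cells held 21368207 of 140480402 UMIs of CON, 36498860 of 116380909 of UV and 50779895 of 116003454 of Rux. Their share thus enters the ratios over all retained cells, and its part in them was not tested. In Rux over CON, 1 of 10 members past 2-fold is near the share of all genes.

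**Figure D5:**
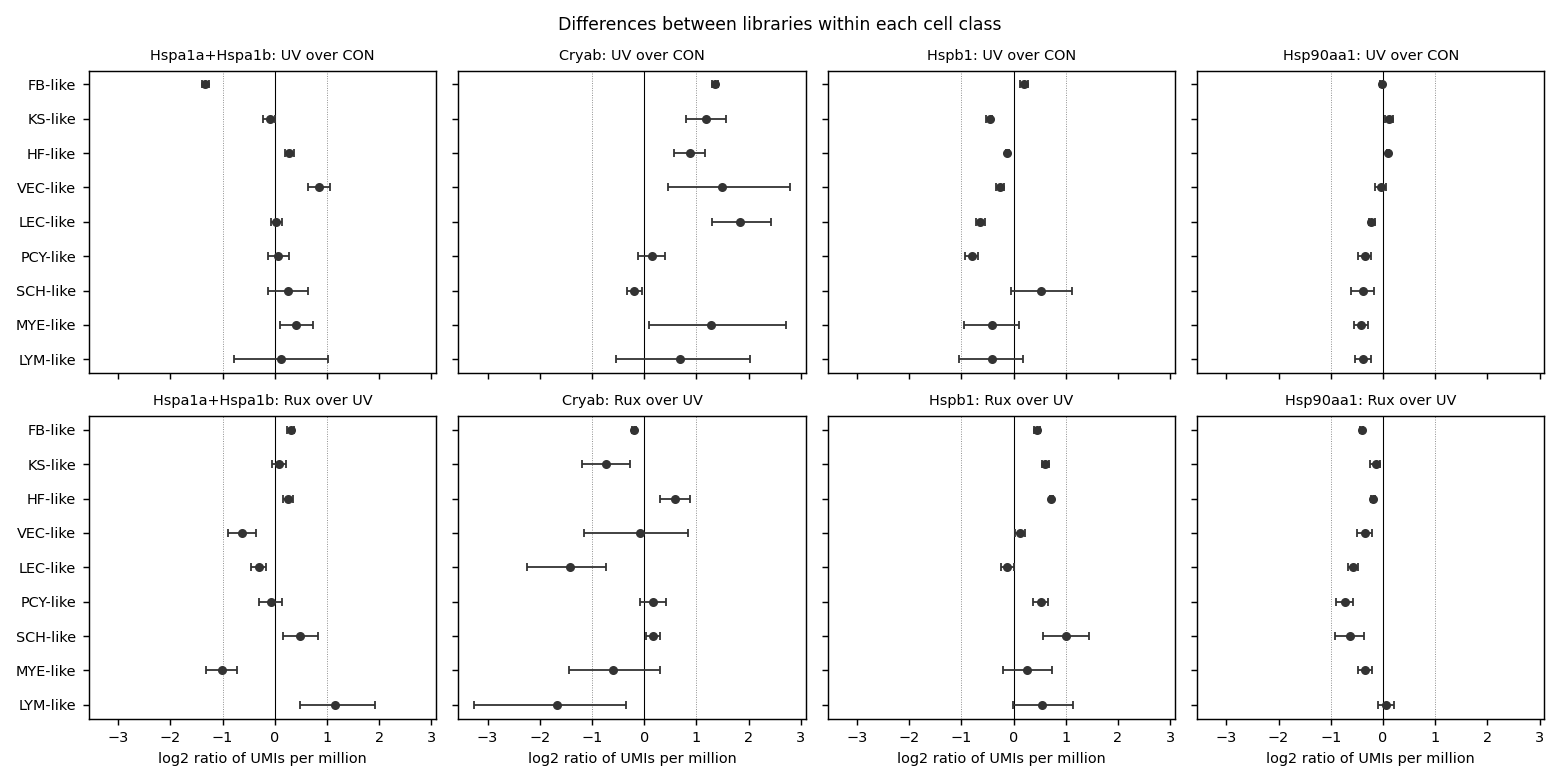
log2 ratio of CPM for the HSP70 pair, Cryab, Hspb1 and Hsp90aa1 in UV over CON (top) and Rux over UV (bottom), in the 9 classes with at least 100 cells per library, with exact 95% intervals. Dotted lines mark 2-fold. The pair is low in UV in FB-like cells and high in VEC-like cells, and Hsp90aa1 lies left of 0 in 8 of 9 classes in Rux over UV.

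In Rux, both Cryab and HSP70 of FB-like cells lay nearer to UV than to CON. In FB-like cells none of the 10 members was past 2-fold in Rux over UV, where 2.73% of 8062 genes were, and none over all retained cells, where 2.40% of 9304 genes were. The members' median log2 ratio was 0.01 in FB-like cells, against 0.02 for all genes. Cryab was slightly lower in Rux than in UV (−0.19, −0.23 to −0.16). The HSP70 pair was slightly higher (0.30, 0.24 to 0.36), but with the clusters weighted as in CON its ratio was −0.05. In Rux over CON, Cryab (1.16, 1.10 to 1.22) and Hspa1a (−1.08, −1.15 to −1.01) were past 2-fold, where 6.03% of 8203 genes were. Hspa1b lay just inside the mark at −0.96 (−1.06 to −0.87). Any pair of the 3 comparisons shares a library, so none is independent of the others.

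Hsp90aa1 differed between Rux and UV in nearly every class. In FB-like cells it stood at 787 CPM (775 to 799) in CON, 775 CPM (766 to 784) in UV and 581 CPM (575 to 588) in Rux. CON and UV overlapped, and Rux lay below both (Rux over UV −0.41, −0.44 to −0.39). The ratio was below 0 with its interval in 8 of the 9 classes, and lowest in PCY-like cells (−0.73, −0.89 to −0.57), which had 941, 736 and 444 CPM. LYM-like cells were the exception (0.06, −0.10 to 0.21). Within FB-like cells Rux was below UV in all 8 clusters with intervals apart. Hspa8 had 1431, 1336 and 1116 CPM in FB-like cells, and Rux was below UV with its interval in 7 of 9 classes. In MYE-like cells Hspa8 was higher in Rux than in UV (0.13, 0.06 to 0.20). Dnajb1 was below UV in 8 of 9 classes and with its interval in 6. None of the Rux over UV ratios of these 3 genes in the 9 classes reached 2-fold.

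Hspb1 differed the other way. It was higher in Rux than in UV in 8 of the 9 classes, and in 6 of them the interval lay above 0. HF-like cells, which held 29883 of its 73146 UMIs in CON, had 654 CPM (646 to 661) in CON, 603 CPM (595 to 612) in UV and 993 CPM (980 to 1007) in Rux. KS-like cells had 948, 687 and 1046 CPM, and FB-like cells 105, 120 and 164 CPM. UV lay below CON in HF-like and KS-like cells and above it in FB-like cells. LEC-like cells were the exception, with 572, 367 and 338 CPM. In SCH-like cells Hspb1 rested on 39, 79 and 109 UMIs, at 98.9, 143 and 286 CPM. The epithelial classes were made of different clusters in the libraries. Of KS-like cells, cluster 9 (Cst6, Defb6 and Krt79) held 506, 239 and 201, and cluster 31 (Krt77, Krt10 and Krt1) 255, 7 and 20. Of HF-like cells, cluster 26 (Pthlh, Krt6a and Wfdc18) held 64, 95 and 185. The part of this make-up in the Hspb1 values was not tested.

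The mitochondrial pair Hspd1 and Hspe1 differed by class. In VEC-like cells Hspd1 was lower in UV than in CON (−0.88, −1.17 to −0.60), as was Hspe1 (−0.70, −0.94 to −0.46). The HSP70 pair was higher there and Hspb1, with 1031 and 863 CPM, was lower too. The VEC-like clusters differed in size between these libraries, as given above, and the part of this was not tested. In HF-like cells, their main site among the larger classes, both were slightly higher in UV, by 0.17 (0.14 to 0.21) and 0.10 (0.07 to 0.13). In FB-like cells Hspd1 had 107, 102 and 86.1 CPM and Hspe1 136, 103 and 129 CPM, so their order between UV and Rux was opposite.

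Most other lists of protein folding genes were centred near all genes in FB-like cells. Of 24 partners in the HSF1 network (such as HSF factors and co-chaperones), 8 were above and 16 below CON in UV, none by 2-fold. Of all genes 38.2% were above CON and 4.58% were past 2-fold in either direction. The median of the partners was −0.11 beside −0.10 for all genes. The highest was Hsf2 (0.77), and the lowest were the HSP70 relative Hspa2 (−0.92) and Fkbp4 (−0.58). Hspa2 had 36.0 CPM in CON, 19.0 CPM in UV and 9.12 CPM in Rux, a step down in each. The 8 subunits of the cytosolic chaperonin TRiC lay between −0.11 (Cct6a) and 0.17 (Cct3). Of 6 mitochondrial chaperones and proteases 1 was at least 2-fold higher in UV, as were 2.47% of all genes. It was the HSP40 gene Dnaja3, with 25.9, 91.8 and 70.6 CPM (log2 ratio 1.83, 1.70 to 1.96). Clpp (−0.38) and Lonp1 (−0.12) were lowest and Trap1 (0.08) the next highest. Of 11 chaperones of the endoplasmic reticulum with at least 10 CPM, 2 were above and 9 below CON in UV, where 38.2% of all genes were above, from Dnajb9 (−0.42) and Dnajb11 (−0.20) to Canx (0.03) and Calr (0.08). None of the 4 other small heat shock genes had a mean of 10 CPM in that comparison.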

How the data were processed

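Dorsal skin was profiled in 3 droplet-based 3′ single-cell libraries, 1 per condition. The authors deposited raw UMI counts per gene and cell barcode, made by Cell Ranger against mm10 with no further normalization. The version is 6.1.2 in the submitters' processing notes, which also name Seurat 5.3.0, and 7.0.0 per the file headers, and whether intronic reads were counted is not given in the sources used here. Cells were kept from 200 detected genes up and with a mitochondrial share of up to 10%, and the highest Scrublet scores were removed at 0.8% of cells per 1000 cells (scanpy 1.11.5, Python 3.11.15), 1269, 1128 and 923 cells of CON, UV and Rux. The 3 libraries were clustered together in Seurat 5.3.0 under R 4.3.3 on 1997 variable genes, 30 principal components and resolution 1.5. All genes of the lists used here were left out, which also hold immediate-early and sex-linked genes. This took out 3 variable genes, so member levels did not define the clusters. A cluster was named when at least 3 markers of its best class were each detected in 10% of its cells. That class had to score above the average cluster and, where the next class did too, lead it by 1 log2 unit. A cluster stayed unnamed if its top 10 genes held more markers of another class. So it did if its UMIs per cell were few and no marker of its best class was among those genes. Keratinocyte clusters were then divided.

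UMIs were summed per class and library and scaled to CPM, and ratios had 0.5 UMI added to each sum (numpy 2.4.6, scipy 1.17.1, pandas 2.3.3, matplotlib 3.10.9). The interval calculation was run on simulated Poisson counts with 200 changed genes. Such counts hold no spread between cells or mice, so this run cannot show that the intervals cover that spread. Retained cells gave 140480402, 116380909 and 116003454 UMIs, with medians of 7509, 7618 and 9449 per cell, and FB-like cells 21368207, 36498860 and 50779895. Gene coordinates are from GENCODE M21 and upstream sequences from RefSeq (GRCm38.p6), the build named for the files.

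All 10 members are named. From each other list at most the 2 highest and 2 lowest log2 ratios of UV over CON in FB-like cells at 10 CPM are named, and Hspa2 in Rux. Genes of like pattern are the first 3 by Pearson r of log2(CPM + 10) among genes with a mean of 20 CPM. Some genes that this rule selects are not reported here. The members and lists were chosen with earlier results of these data known. Alternatives were strict and loose cell filters, no doublet removal, scaling by the median of ratios, the mean of per-cell levels (equal weight per cell), totals without haemoglobin, keratin and mitochondrial genes, resolution 0.8, clustering with the lists kept, no minimum in the background count and no thinning. The samples come with no replicate, so no test was run.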

Additional observations from a re-analysis of the deposited data

Results flagged for a closer look

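A member was looked at again when its log2 ratio was at least 0.5 in 1 class and at most −0.5 in another, with both counting intervals off 0, among the 9 classes with at least 100 cells per library. With 1 library per condition, none of these differences between classes was tested.

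For the HSP70 pair in UV over CON, FB-like cells stood at −1.33 (−1.40 to −1.27) and VEC-like cells at 0.84 (0.63 to 1.06). In Rux over CON, FB-like cells stood at −1.04 (−1.09 to −0.98) and LYM-like cells at 1.27 (0.61 to 2.03), the latter from 35.7 CPM in Rux against 14.6 CPM in CON. In Rux over UV, MYE-like cells stood at −1.01 (−1.31 to −0.72) and LYM-like cells at 1.15 (0.49 to 1.91). LYM-like cells of CON and UV held 23 UMIs of the pair each, and a cluster of them led by Trdc held 91, 2 and 1 cells of CON, UV and Rux, so their make-up differed too. MYE-like cells also differed in make-up, with 207, 148 and 137 cells in cluster 20, which immunoglobulin genes led, and 70, 97 and 303 in cluster 21.

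For Cryab in Rux over UV, LYM-like cells stood at −1.67 (−3.26 to −0.34), from 15 and 7 UMIs, and HF-like cells at 0.59 (0.31 to 0.88), at levels of 6.75 and 10.2 CPM. For Hspb1 in Rux over CON, LEC-like cells stood at −0.76 (−0.87 to −0.65) and SCH-like cells at 1.52 (0.99 to 2.10). For Hspa8 in Rux over CON, PCY-like cells stood at −0.62 (−0.72 to −0.53) and MYE-like cells, with the change of make-up given above, at 0.53 (0.45 to 0.61).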

How the results depend on the processing

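No paired analysis was possible because each condition had 1 library, and for the same reason leaving out a replicate was not an option. Of 363 log2 ratios of members recomputed in FB-like cells, 255 stayed within the counting interval of the reported value and 108 moved out of it. Over all retained cells 137 of 198 stayed and 61 moved, and no ratio past 2-fold changed its sign in either set.

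Median-of-ratios scaling raised all log2 ratios of FB-like cells by 0.10 in UV over CON and 0.15 in Rux over CON, and those of all retained cells by 0.11 in Rux over UV and Rux over CON. With it the members' median was −0.05 and −0.18 in FB-like cells and −0.01 and −0.08 over all retained cells, and 1 member was past 2-fold in Rux over CON in FB-like cells. With it 6 of the 10 members kept their highest class of CON. With equal weight per cell the median over all retained cells was −0.26 in UV over CON and −0.35 in Rux over CON, with 0 members past 2-fold in the latter. The strict filter left 1 member past 2-fold in Rux over CON in FB-like cells.

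Of the settings chosen after seeing the data, weighting the FB-like clusters as in CON left 1 member past 2-fold in UV over CON and 1 in Rux over CON, and moved the median of Rux over UV to −0.14. Without cluster 0 the medians were −0.08 in UV over CON and −0.23 in Rux over CON, with 1 member past 2-fold in the latter. Adding the unnamed clusters 3 and 16 to FB-like cells also left 1 there. Under all settings run, Cryab in FB-like cells stayed between 1.23 and 1.45 in UV over CON, and the HSP70 pair between −1.35 and −0.82. Dropping the minimum of 10 CPM changed only the share of all genes past 2-fold. That share was computed for the main processing only, so the counts of members under other settings have no such share beside them.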

Other observations

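In FB-like cells, 10 of 12 chaperones of the endoplasmic reticulum, which serve the folding of secreted proteins, were above 0 in Rux over UV, where 53.1% of all genes were. None was past 2-fold, and the median log2 ratio was 0.29 beside 0.02 for all genes. Below 0 were Hspa5 (−0.01) and the co-chaperone Dnajb9, which had 137, 102 and 80.0 CPM in CON, UV and Rux. Hyou1 and Pdia4, chosen after their values were seen, had 15.9, 14.0 and 22.3 CPM and 44.3, 44.3 and 65.1 CPM. The FB-like clusters differed in size between UV and Rux. Cluster 12, led by Igfbp2, Col1a1 and Mfap4, held 70 and 273 cells, and cluster 5 held 1083 and 355. The part of this make-up in the values of the list was not tested. The list lay the other way in HF-like cells, with 2 of 12 above 0 and a median of −0.10, where 47.2% of all genes were above 0. So it did in MYE-like cells, with 2 of 12 above 0 and a median of −0.39, where 51.8% of all genes were above 0. In LYM-like cells 4 of 12 were above 0, where 44.2% of all genes were.

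The 8 TRiC subunits differed in direction by class in UV over CON. All 8 were above CON in HF-like cells, where 44.1% of all genes were, with a median of 0.11 beside −0.04 for all genes. All 8 were below CON in VEC-like, LEC-like and PCY-like cells, where 49.6%, 52.3% and 52.8% of all genes were above it. Their medians there were −0.32, −0.22 and −0.29 beside −0.00, 0.02 and 0.03 for all genes. In FB-like cells 4 were above and 4 below.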
